A study of Mus musculus with 6 samples.

Results

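The transcription factors examined here are Pou4f1, Pou4f2, Lhx1, Lhx5, Lhx2 and Lhx9, a set grouped under the red nucleus, a motor relay of the ventral midbrain. They were measured in sorted cells of the mouse ventral midbrain at embryonic day 12.5. Members were all probe sets whose platform gene symbol was exactly one of these 6 names, which gave 10 of 45037 probe sets other than controls. Lhx9 had 4 of them, Pou4f1 and Lhx1 had 2 each, and Lhx5 and Lhx2 had 1 each. No probe set carried the symbol Pou4f2, so Pou4f2 was not analysed here, and the members measured were 5 genes.

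The study compared 2 populations on 3 arrays each. The Ngn2-GFP positive cells came from CD1/129 embryos of a reporter line in which GFP marks cells that express the proneural gene Neurog2. They were labelled as midbrain dopaminergic progenitors. The Lmx1a-GFP negative cells came from C57BL/6 embryos of a line in which GFP marks cells that express Lmx1a, a factor of dopaminergic progenitors, and were labelled as a non-dopaminergic reference. Both were separated by fluorescence-activated sorting of ventral mesencephalon, and the series' design text calls the 3 arrays of each group biological replicates. The 2 populations differ in reporter line, in strain and in the fraction collected, and the effects of these cannot be told apart. Neither gate selects for red nucleus cells, and each population is a mixture. In such bulk samples fewer cells of a type and less RNA per cell cannot be told apart.

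POU4F proteins combine a POU-specific domain with a homeodomain. Pou4f1 (Brn3a) marks post-mitotic neurons of the red nucleus, sensory ganglia and habenula, and Pou4f2 (Brn3b) is best known from retinal ganglion cells. LIM-homeodomain proteins such as the Lhx factors carry a pair of LIM domains that bind the adaptor Ldb1, and combinations of them mark classes of neurons along the neural tube. Lhx1 and Lhx5 are close relatives that mark many interneurons and midbrain neurons outside the dopaminergic lineage. Lhx2 and Lhx9 are another related pair, known from the thalamus, the cortex and dorsal interneurons, and Lhx9 also from the gonad.

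Lhx1 was the member that differed between the populations. It lies head to head with Lhx1os, a long non-coding RNA gene on the opposite strand, and the interval between their annotated starts is shown because both neighbours were measured. The RefSeq sequence of this interval (GRCm38.p6, chr11:84525535-84525659, minus strand, 125 bases) is given on the strand of Lhx1, so that Lhx1 begins after its last base and Lhx1os is read the other way from its first. The capitals mark the single CCAAT box, read here as ATTGG, and the single TGACG motif.
Lhx1 to Lhx1os interval: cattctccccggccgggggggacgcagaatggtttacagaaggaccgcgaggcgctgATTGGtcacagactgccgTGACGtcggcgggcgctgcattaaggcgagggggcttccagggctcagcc

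Searched on both strands, CCAAT occurred in 21.85% and TGACG in 11.93% of 32851 RefSeq promoter windows of the same length and position. The E-box CANNTG (41.55% of windows), the homeodomain core TAATTA (2.222%) and GATAA (10.96%) were not found in these letters. The motifs did not overlap, and the interval held 66.4% G and C, against a median of 54.4% over the windows.

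The Lhx1 probe set 1450428_at had signals of 276, 204 and 275 on positive arrays 1 to 3, against 586, 778 and 592 on negative arrays 1 to 3. Signals are the authors' MAS5 intensities, in arbitrary units on a linear scale. Every positive value lay below every negative value, and the spread within each group was small beside the gap between them. The mean was 252 ± 41 in positive cells and 652 ± 109 in negative cells (SD, n = 3 each). The log2 fold change, always given as positive minus negative, was -1.37 (SE 0.22, 95% interval -1.84 to -0.90), a 2.59-fold lower signal in positive cells. It passed the threshold of 0.05 in the limma fit across 12047 genes, each read from the tested probe set whose log2 signal averaged highest, with a Benjamini-Hochberg adjusted p of 0.00748. In that fit 0.639% of all tested genes were lower and 0.423% higher in positive cells, and of the 5 member genes 1 was lower and 0 higher. In a fit across all 27738 tested probe sets, of which 0.35% were lower, its adjusted p was 0.0126.

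The second Lhx1 probe set, 1421951_at, was also lower in positive cells but by less. It had signals of 136, 167 and 104 on the positive arrays, against 264, 195 and 205 on the negative arrays, again without overlap. The log2 fold change was -0.72 (SE 0.26, 95% interval -1.28 to -0.16), 1.65-fold lower, and did not pass over all probe sets (limma, adjusted p = 0.408). Both probe sets of Lhx1 therefore pointed the same way, and 1 of them passed. Groups did not overlap for 2 of the 10 member probe sets, both of Lhx1, beside 13.9% of all tested probe sets.

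Lhx1os, the divergent neighbour, had signals of 723, 692 and 551 in positive cells, against 921, 580 and 901 in negative cells. The groups overlapped, and the log2 fold change of -0.27 (SE 0.23, 95% interval -0.77 to 0.24) did not pass (limma over all probe sets, adjusted p = 0.751). Whether Lhx1 and Lhx1os differ in their change was not tested.

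**Figure D1:**
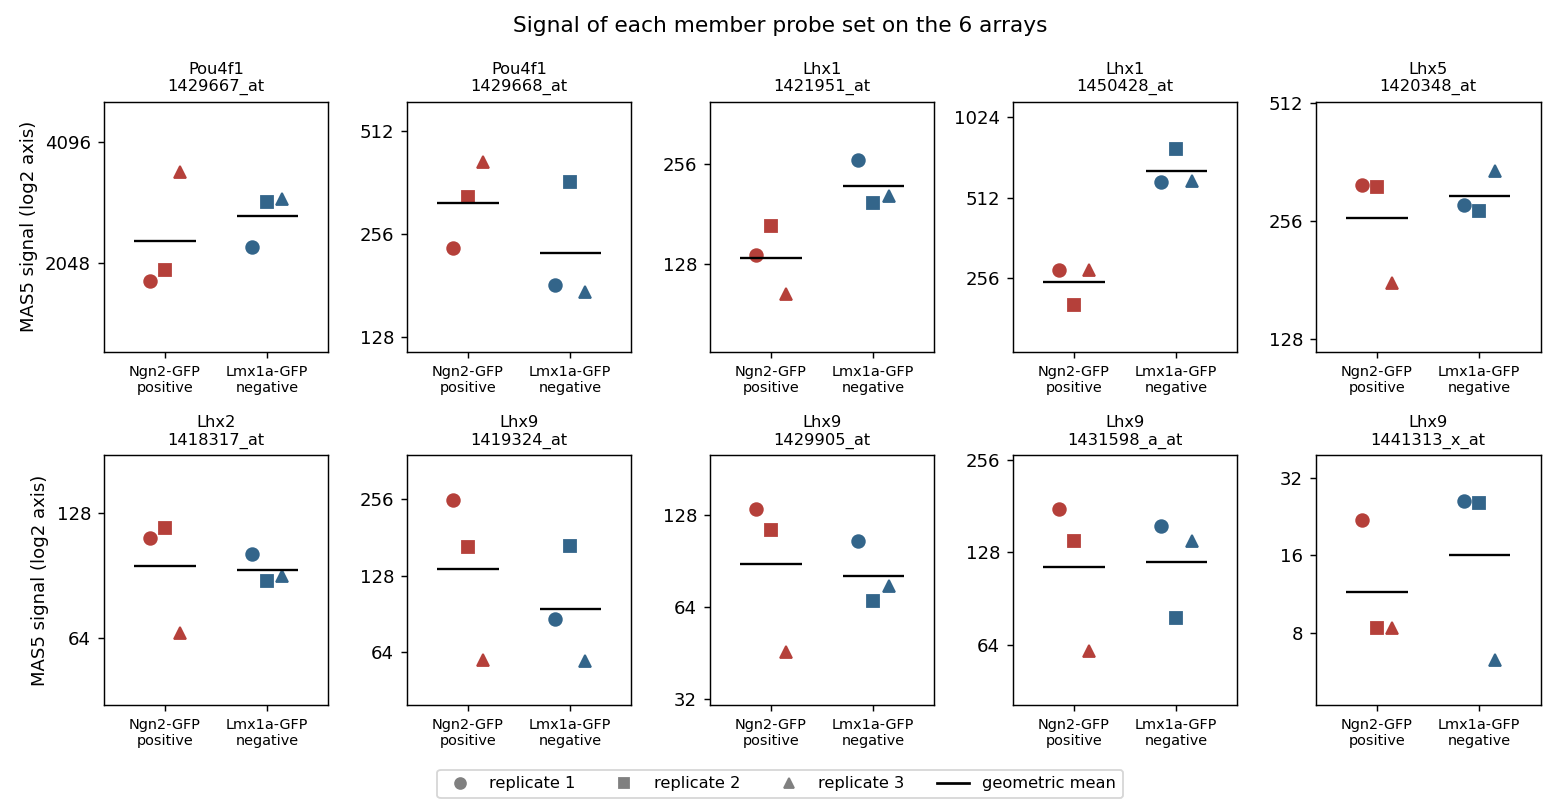
MAS5 signal (log2 axis, scaled per panel) of each of the 10 member probe sets on 3 Ngn2-GFP positive and 3 Lmx1a-GFP negative arrays. Points are arrays with the marker giving the replicate, and bars are geometric means. The groups separate in both Lhx1 panels and overlap in the other 8. Positive replicate 3 is the lowest positive array in the Lhx2 and Lhx5 panels and the highest in both Pou4f1 panels.

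The call on Lhx1 depended on the arrays included. Positive replicates 1 and 2 stood apart from the other 4 arrays in the hybridization spike-ins, with geometric means of 2293 and 2352. Positive replicate 3 had 5018, and the negative arrays had 4254 to 6560. A fit blocked on this split compares positive replicate 3 alone with the negative arrays. There Lhx1 differed by -1.23 (SE 0.29) and no longer passed (limma, adjusted p = 0.208). Without positive replicate 2 it differed by -1.23 at an adjusted p of 0.0541, and without any other single array it kept an adjusted p under 0.05, between 0.00617 and 0.0433. In the fit over all probe sets the call was lost in 6 of 14 other settings. The fold change itself stayed negative in all 16 other settings tried, between -1.45 and -1.05. The -1.05 is the mean of both Lhx1 probe sets, and 1450428_at itself ran from -1.45 to -1.23. Probe set 1421951_at ran from -1.08 to -0.54 over the 14 settings run on it.

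Some markers of other cell types were also lower in positive cells, while those of thalamus and pretectum were mixed in direction. Of 8 tested markers of midbrain GABAergic neurons 5 were lower in positive cells and 0 higher, with 1 positive and 7 negative values. Their median log2 fold change was -1.22, against 0.03 over all tested genes. Their summed signal ran from 2468 to 2700.4 on positive arrays and from 5741 to 6069 on negative arrays, and 0 of the 8 were dim on every array. Dim means below the 40th percentile of an array. The 5 lower included Tal2 (-3.21, SE 0.26, adjusted p = 2.81e-05), Gata3 (-2.36, SE 0.35, adjusted p = 0.0054) and Gata2 (-1.59, SE 0.24, adjusted p = 0.00654), all selector factors of midbrain GABAergic neurons. Sox14 ran the other way without passing (1.31, SE 0.91, limma adjusted p = 0.620), and its groups overlapped. In the spike-in block fit 3 of the 8 were lower, and without single arrays 4 to 6. Macrophage and blood markers were lower too. Summed signals of 8 macrophage markers ran from 20.8 to 45.1 in positive cells and from 373 to 771 in negative cells, and 4 of 5 tested were lower. Those of 6 blood markers ran from 307 to 627 in positive cells and from 7511 to 14928 in negative cells, and 5 of 5 tested were lower. Of the tested markers, Csf1r, Aif1, Tyrobp, Fcer1g, Hbb-bh1 and Hba-x were dim on all positive arrays. They passed the filter through the negative arrays alone, so their direction was set by the filter. The block left 2 macrophage and 4 blood markers lower, and without negative replicate 1 or 2 the macrophage count was 2. The part of any of these cell types in the Lhx1 difference was not tested.

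Lhx5, the closest relative of Lhx1, did not pass the threshold. Its only probe set had signals of 317, 313 and 179 in positive cells, against 282, 272 and 344 in negative cells. Positive replicates 1 and 2 fell within the range of the negative arrays and positive replicate 3 lay below it. The log2 fold change was -0.19 (SE 0.25, 95% interval -0.74 to 0.36) and did not pass (limma, adjusted p = 0.81). Its sign turned without positive replicate 3 (0.08), and with the spike-in block it was -0.74 (adjusted p = 0.623).

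Lhx1 and Lhx5 were set against each other within each array, a comparison chosen after their values were seen. The log2 ratio of Lhx1 to Lhx5 was -0.20, -0.61 and 0.62 on the positive arrays, against 1.06, 1.52 and 0.78 on the negative arrays. Since the probe sets differ in response, only the difference of these ratios between groups can be read. It was -1.18, with all positive values below all negative ones, at a two-sided exact permutation p of 0.1, the smallest that 3 arrays against 3 allow. The same ratio of Lhx2 to Lhx9 differed by 0.09 (exact permutation p = 1, two-sided). These were the 2 pairs computed, and neither can pass 0.05 in this design. Of the positive arrays, replicate 3 had the Lhx1 to Lhx5 ratio closest to the negative arrays, and its Lhx5 signal was the lowest of the 6.

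Pou4f1 was measured by a pair of probe sets that pointed in opposite directions. The first, 1429667_at, had signals of 1839, 1959.6 and 3438 in positive cells, against 2246, 2903 and 2945 in negative cells. Positive replicate 3 was the highest of the 6 arrays and positive replicates 1 and 2 were the lowest. The log2 fold change was -0.21 (SE 0.27, 95% interval -0.79 to 0.37) and did not pass (limma, adjusted p = 0.799). The second, 1429668_at, had signals of 233, 327 and 414 in positive cells, against 182, 364 and 174 in negative cells, a log2 fold change of 0.49 (SE 0.31, 95% interval -0.18 to 1.15) with overlapping groups (limma over all probe sets, adjusted p = 0.66).

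The direction of Pou4f1 was thus not settled by these arrays. For 1429667_at it was -0.50 without positive replicate 3 and 0.36 with the spike-in block, and it was 0.18 after quantile normalization. The mean of both probe sets gave 0.14. The second probe set kept a positive value in all 14 settings run on it, from 0.29 to 0.88, and passed in 0 of them. A signal of Pou4f1 well above the 40th percentile of every array (10.2 to 15.8) was present in both populations.

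Lhx2 gave the smallest difference. Its probe set had signals of 111, 118 and 65.9 in positive cells, against 102, 87.9 and 90.2 in negative cells. The negative arrays lay between positive replicate 3 below and positive replicates 1 and 2 above. The log2 fold change was 0.03 (SE 0.29, 95% interval -0.60 to 0.67), and the limma fit did not call it (adjusted p = 0.982). The interval is wide on both sides of 0, so equal levels were not shown.

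Lhx9 was read by 4 probe sets, none of which passed. The one with the highest mean log2 signal, 1431598_a_at, stands for the gene. It had signals of 177, 139.6 and 60.9 in positive cells, against 156, 78.1 and 139 in negative cells. Positive replicate 3 was again the lowest array, and the log2 fold change was -0.06 (SE 0.39, 95% interval -0.90 to 0.79, limma adjusted p = 0.973). Probe set 1419324_at had 254, 166 and 60 in positive cells, against 86.7, 167 and 59.4 in negative cells, with a log2 fold change of 0.52 (SE 0.49). By mean linear signal it would stand for the gene, and it did so by mean log2 signal without negative replicate 1 or 3. Its highest array was 4.23 times its lowest within the positive group and 2.82 times within the negative group. Probe set 1429905_at had 133, 114 and 45.6 in positive cells, against 105, 66.7 and 74.9 in negative cells, with a log2 fold change of 0.14 (SE 0.39). The fourth, 1441313_x_at, exceeded the 40th percentile on 3 of the 6 arrays, at signals of 8.34 to 21.9 in positive cells and 6.26 to 26.1 in negative cells, and differed by -0.48 (SE 0.77). Its suffix marks probes that can cross-hybridize. Adjusted p for these 3 probe sets lay between 0.771 and 0.943 (limma over all probe sets).

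**Figure D2:**
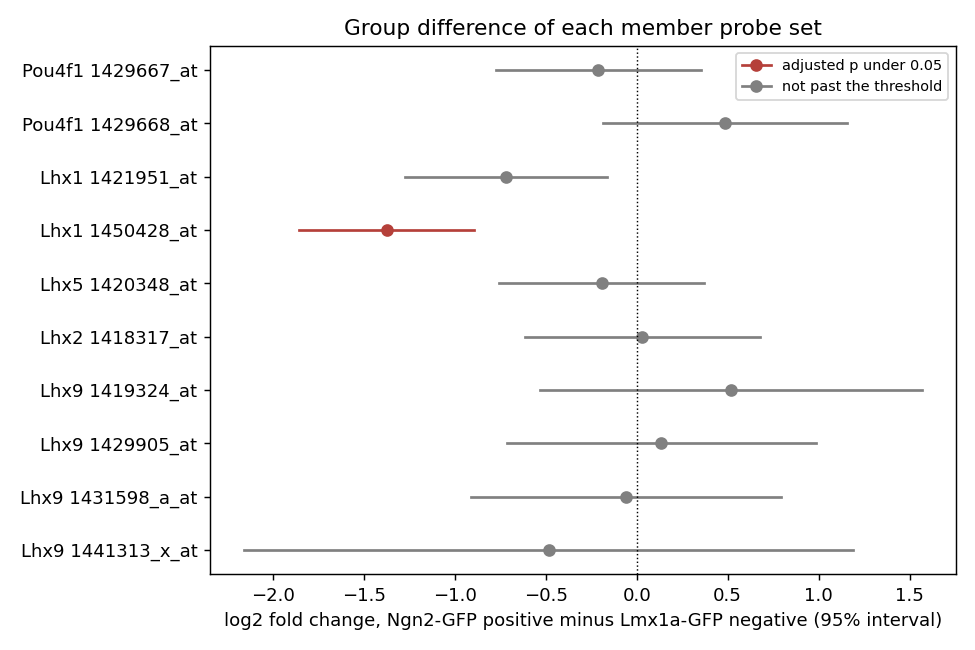
Log2 fold change of each member probe set, Ngn2-GFP positive minus Lmx1a-GFP negative, with 95% intervals of the limma fit over all 27738 tested probe sets (n = 3 arrays per group). Probe set 1450428_at of Lhx1 (-1.37) is the 1 that passed, and the intervals of all members other than Lhx1 include 0.

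Positive replicate 3 departed from the other positive arrays in most Lhx probe sets. It was the lowest of the 6 arrays for 5 of the 10 member probe sets, beside 16.5% of all tested probe sets, and the highest for 2, both of Pou4f1, beside 12.1% of all. This pattern was noticed in the values and carries no test. Lhx5, Lhx2 and all Lhx9 probe sets were lower on it than on either other positive array. For 1441313_x_at the gap was slight, at 8.34 against 8.37 on positive replicate 2. The log2 fold changes with the spike-in block, which use that array alone, were -0.74 for Lhx5, -0.50 for Lhx2 and -0.97 for Lhx9. Without it they were 0.08, 0.30 and 0.40. For Pou4f1 the order was reversed, at 0.36 with the block and -0.50 without that array. Lhx1 kept its sign between those settings, at -1.23 with the block and -1.45 without that array. Once positive replicate 3 is left out, the spike-in split follows the groups, and the effects of both cannot be told apart.

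**Figure D3:**
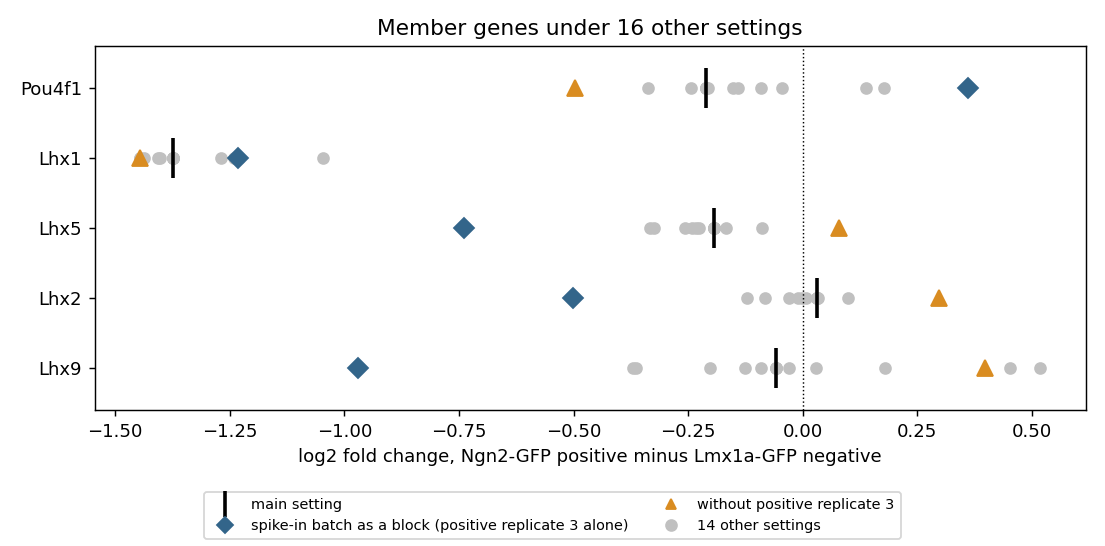
Log2 fold change of the 5 member genes, Ngn2-GFP positive minus Lmx1a-GFP negative, in the main setting (bar) and 16 others (points). Diamonds use positive replicate 3 alone and triangles leave it out. Some Lhx9 points come from another of its probe sets. Pou4f1, Lhx1 and Lhx9 each have a point that is the mean of the gene's probe sets. Lhx1 stays between -1.45 and -1.05, the latter being that mean, and the other genes change sign with the setting.

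Other genes of the red nucleus and of the Nkx6-1 domain from which it arises were taken from a list of 10, of which 8 were tested. They had 1 higher and 0 lower in positive cells, with a median log2 fold change of -0.08, beside 51 higher, 77 lower and a median of 0.03 over all 12047 tested genes. The 1 higher gene was Slc17a6, the vesicular glutamate transporter, with signals of 799, 897 and 512 in positive cells, against 385, 313 and 301 in negative cells (1.11, SE 0.24, adjusted p = 0.0475). With the spike-in block 0 genes of the list were higher, as without each array in turn except positive replicate 3, where 1 was. At an unadjusted p under 0.05, 2 of the 8 passed, beside 10.8% of all tested genes (limma). The second was Emx2, a homeodomain factor, with signals of 359, 452 and 511 in positive cells, against 814, 920 and 597 in negative cells. The groups did not overlap, and its value of -0.81 (SE 0.23) ran opposite to Slc17a6 without passing (limma, adjusted p = 0.167). Nkx6-1, a homeodomain factor of ventral progenitors, had signals of 120, 116 and 95.6 in positive cells, against 130, 88.9 and 131 in negative cells, which overlapped (-0.07, SE 0.26). Sim1, a bHLH-PAS factor, had signals of 121, 118 and 192 in positive cells, against 161, 188 and 105 in negative cells (-0.07, SE 0.29). Emx2, Nkx6-1 and Sim1 were chosen after their values were seen. Tbr1, a T-box factor reported in red nucleus neurons, and C1ql2 did not pass the filter, with signals of at most 14.2 and 9.66 on any array.

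None of the 6 other POU genes tested passed. Of them 2 had positive and 4 negative values, with a median of -0.15. The brightest were Pou3f3, a neural progenitor factor (Brn1), at -0.72 (SE 0.26, adjusted p = 0.322), and Pou3f2 (Brn2) at -0.12 (SE 0.19, adjusted p = 0.848). At an unadjusted p under 0.05, 1 of the 6 passed, beside 10.8% of all tested genes in the limma fit. Without positive replicate 3, 1 of the 6 was lower.

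Among the other LIM-homeodomain genes 4 of 8 were tested, with 1 higher and 1 lower, and 3 positive and 1 negative values. All 4 had an unadjusted p under 0.05 (limma), beside 1296 of 12047 tested genes. Groups did not overlap for any of the 4, beside 1862 of all tested genes. Both counts include Lmx1a, which the gate and the filter favoured. Lmx1b (1.05, SE 0.26, adjusted p = 0.104) and Lhx4 (0.85, SE 0.30, adjusted p = 0.319) were positive without passing. Lmx1a, whose reporter set the gate of the negative cells, had signals of 146, 170 and 78.7 in positive cells, against 3.74, 9.75 and 1.81 in negative cells. It was dim on all negative arrays and at least 9.65-fold higher in positive cells (adjusted p = 0.00167), a direction the gate favoured. It passed the filter through the positive arrays alone, so its direction was also set by the filter. Isl1, a factor of motor neurons, had signals of 26.5, 21.4 and 47 in positive cells, against 123, 172 and 128 in negative cells (-2.22, SE 0.35, adjusted p = 0.00764). With the spike-in block 0 of the list were called, and 1 was higher and 1 lower without each array in turn. The fold change of Lhx1 was smaller than that of Isl1, but the difference between them was not tested.

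Of the LIM domain cofactors and competitors, 11 of 11 were tested and none passed the limma threshold. The median was -0.0003, with 5 positive and 6 negative values. At an unadjusted p under 0.05, 3 of the 11 passed, beside 10.8% of all tested genes (limma). These proteins, the Ldb adaptors, the Lmo proteins that compete for them, the ubiquitin ligase Rlim and the Ssbp partners other than Ssbp1, set how LIM-homeodomain factors assemble. The brightest were Ssbp3 at -0.28 (SE 0.21, adjusted p = 0.647) and Ssbp1, a mitochondrial single-stranded DNA binding protein, at -0.58 (SE 0.26, adjusted p = 0.453). The 3 at an unadjusted p under 0.05 were Ssbp1, Lmo2 and Lmo4. Lmo2 (0.97, SE 0.28, adjusted p = 0.197) and Lmo4 (0.93, SE 0.42, adjusted p = 0.453) ran opposite to Ssbp1. The groups did not overlap for Lmo2. Ldb1, chosen after its values were seen, had signals of 498, 543 and 430 in positive cells, against 639, 455 and 510.2 in negative cells, with overlapping groups. Without positive replicate 3, 1 cofactor was lower.

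Lhx2 and Lhx9 are also thalamic factors, and markers of thalamus and pretectum were mixed in direction. Of 8 tested, 2 were lower and 0 higher in positive cells, with 4 positive and 4 negative values and a median of 0.02. That median was -0.92 with the spike-in block and ran from -0.46 without positive replicate 1 to 0.24 without positive replicate 3. The 2 lower were Barhl2 (-2.28, SE 0.37, adjusted p = 0.0093) and Tcf7l2, a Wnt effector (-1.15, SE 0.20, adjusted p = 0.0111). Foxd1 ran the other way without passing (2.26, SE 0.84, limma adjusted p = 0.343). It was dim on all negative arrays and passed the filter through the positive arrays alone, so its direction was set by the filter. The summed signal of the list ran from 1510 to 1631 in positive cells and from 2957 to 3304 in negative cells. Most of it was Tcf7l2, at 1146 to 1247 in positive cells and 2531 to 2839 in negative cells. With the spike-in block 2 were lower, and 0 to 2 were lower without 1 array, the 0 without negative replicate 1. Of 7 tested genes listed as alar midbrain markers 3 were lower and 0 higher, with 2 positive and 5 negative values and a median of -1.06. Among the negative values, Pax3 (-2.96) was dim on all positive arrays. It passed the filter through the negative arrays alone, so its direction was set by the filter. The 3 lower were Meis2 (-2.93, SE 0.35, adjusted p = 0.000892), Otx2 (-1.06, SE 0.20, adjusted p = 0.021) and Tfap2b (-2.17, SE 0.47, adjusted p = 0.0476). The median is the value of Otx2. Pax7 (0.47, SE 0.38, limma adjusted p = 0.673) and Meis1 (0.80, SE 0.47, limma adjusted p = 0.555) ran the other way without passing. The spike-in block left 0 of the 7 lower, and 1 to 3 were lower without 1 array. Summed signals ran from 446 to 486 in positive cells and from 887 to 1428 in negative cells. A large part was Otx2, present in both populations at 243 to 287 in positive cells and 503 to 614 in negative cells. The part of these cell types in the values of Lhx2 and Lhx9 was not tested.

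**Figure D4:**
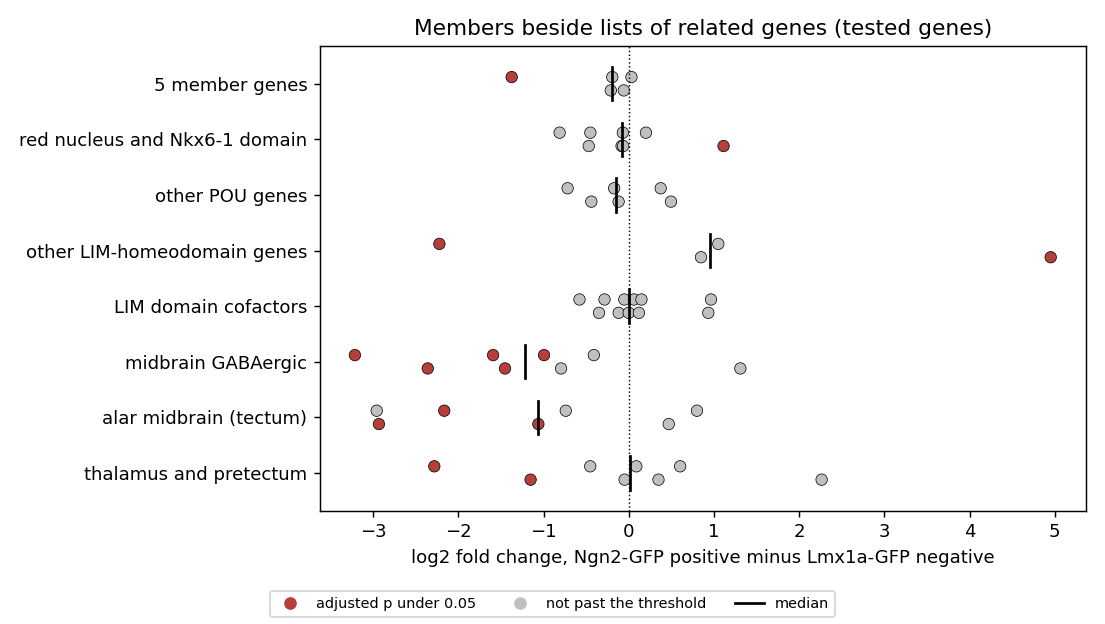
Log2 fold change, Ngn2-GFP positive minus Lmx1a-GFP negative, of the tested genes of each list, with the median as a bar and calls at an adjusted p under 0.05 filled red. Among the 5 members Lhx1 is called. The GABAergic list has 5 called genes, all negative, and the LIM domain cofactors have none.

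Likeness of pattern was measured by the Pearson correlation of log2 signal over the 6 arrays, among 6625 tested genes that range over at least 1 log2 unit. With so few arrays, which share the group split and the scaling, such values describe the arrays and carry no test. For Lhx1 the closest genes were Fam181b (r = 0.992), Tyrobp, a macrophage adaptor (r = 0.99), and Tal1, a GABAergic selector factor (r = 0.988). Their fold changes were -1.39, -5.29 and -0.99. For Lhx9 they were Cyp39a1 (r = 0.999), A530016L24Rik (r = 0.998) and Trim21 (r = 0.995), with fold changes of -0.01, -0.05 and -0.18. Pou4f1, Lhx5 and Lhx2 ranged over less than 1 log2 unit (0.90, 0.95 and 0.84).

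Further genes bear on the labels of the populations. The reporter gene Neurog2 had signals of 706, 585 and 500.4 in positive cells, against 338, 388 and 334 in negative cells, without overlap but not past the threshold (0.75, limma over all probe sets, adjusted p = 0.229). Of 9 tested dopaminergic markers 5 were higher and 0 lower in positive cells. Among the 9, Lmx1a, Corin and Slc6a3 were dim on all negative arrays and passed the filter through the positive arrays alone. With the spike-in block 1 of the 9 was higher, and without each array in turn 4 or 5 were. Of this list the pituitary homeobox gene Pitx3 was dim on every array. Of 2 tested oculomotor markers 1, Isl1, was lower. None of 2 tested vascular and meningeal markers passed the limma threshold, and 0 did at an unadjusted p under 0.05. The 6 arrays had median signals of 18.2 to 25.5, and their number limits the precision. Pairs of positive arrays correlated at 0.916 to 0.939 in log2 signal and pairs of negative arrays at 0.891 to 0.900. Pairs across the groups correlated at 0.888 to 0.914.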

How the data were processed

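The deposited values are the intensity of each probe set on a linear scale. Per the submitters' processing notes, the authors used MAS5, limma and R 2.14.2, and the role of limma is not given in the sources used here. Total RNA was labelled with biotin, per the labels' protocols. Every array has a 2% trimmed mean of 100, so total RNA content is not measured. Detection calls, scan dates and slides were not used here. Of 45037 probe sets, 34957 had 1 gene symbol, 920 several and 9160 none listed.

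Values were raised to a floor of 1 before log2. Testing required a signal above the array's 40th percentile on 3 or more arrays, or on 2 or more where an array was left out. All 10 member probe sets passed. The comparison used lmFit and eBayes with trend of limma 3.58.1 under R 4.3.3 (two-sided, 4 residual degrees of freedom), adjusted over all tested genes or probe sets, after the method was tested on simulated data. Brightest means the highest mean log2 signal. "At least" folds set a dim group at the 40th percentile.

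Named genes were every member, up to 3 called or else the 2 brightest genes of each list, the 3 closest in pattern, and the reporters. Outside this rule, Emx2, Nkx6-1, Sim1, Ldb1, Lmo2, Lmo4, Lmx1b, Lhx4, Foxd1, Sox14, Pax7, Meis1, Tbr1, C1ql2, Pitx3 and Lhx1os were named after their values were seen. So were the markers named as dim on all arrays of 1 group. Members and lists were chosen with earlier results of these data known. Alternatives were other scalings, filters, pseudocount 32, variance models and probe set rules, a block for replicate number or for spike-in batch, and the omission of each array in turn. Figures used matplotlib 3.10.9 in Python 3.11.15.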

Additional observations from a re-analysis of the deposited data

How the results depend on the processing

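The number of genes called was sensitive to the processing. It was 51 higher and 77 lower, against 15 and 27 without the variance trend, 3 and 16 without a filter, and 8 and 26 with the spike-in block. Leaving out 1 array gave 16 to 92 higher and 41 to 335 lower, the largest without positive replicate 3. Of the members 0 were higher in every setting, by limma, and 1 was lower, or 0 without the trend, without a filter, with the spike-in block and without positive replicate 2 (0 to 1 over the fits without 1 array).

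Lhx1 kept its direction in all 16 settings. Its adjusted p was 0.0952 without the trend and 0.0656 without a filter, both at -1.37, and 0.208 with the spike-in block at -1.23. It ran from -1.45 to -1.23 without 1 array, and the replicate block kept the call (-1.37, adjusted p = 0.0132). That block changed no other member call. Same-numbered arrays of both groups correlated at 0.14, -0.10 and 0.03 in their deviations, so numbers were not taken as pairs. No called member reversed. Uncalled members did. Lhx2 turned to -0.00069 with median centring, -0.031 with quantile normalization and -0.50 with the spike-in block, and ran from -0.12 to 0.30 without 1 array. Pou4f1 turned to 0.14 as the mean of its probe sets, 0.18 with quantile normalization and 0.36 with the spike-in block. Lhx9 turned to 0.028 as the mean of its probe sets and 0.52 with 1431598_a_at and 1441313_x_at left out, where 1419324_at stands for the gene. Without 1 array the gene's value ran from -0.37 to 0.45, but the values without negative replicate 1 (0.45) and 3 (0.18) are of 1419324_at, which has 0.52 with all arrays, so they are no effect of the array alone. For 1431598_a_at they were 0.14 and 0.05. Lhx5 ran from -0.33 to 0.080 without 1 array. With the spike-in block 1419324_at and 1429905_at of Lhx9 turned to -0.66 and -0.82. Without 1 array 1429905_at ran from -0.16 to 0.61 and 1431598_a_at from -0.37 to 0.40. The causes were not tested. With 3 arrays per group and 1 positive array in the higher spike-in batch, changes of the size of the intervals given cannot be told from 0.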
